A study of Homo sapiens with 4 samples.

Results

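STAT3, its upstream gp130 cytokine receptors and ligand, and its targets were described as a set of 10 genes: LIF, IL6R, IL6ST, LIFR, OSMR, STAT3, SOCS3, BCL3, PIM1 and JUNB. They were picked out by symbol in the gene column of the count tables, with earlier results of these data known. They make up 10 of the 26475 genes listed. All 10 had at least 10 counts in at least 1 library and so entered the comparisons, beside 15204 genes in all. RNA came from mammospheres, floating spheres grown without attachment, of MDA-MB-468, an established line of triple-negative breast cancer with basal-like features. There were 4 conditions with 1 library each. CTL cells carried a control guide and had no doxycycline, and CTL+dox cells were the same cells given doxycycline. The gRNA2 cells carried an inducible guide against TCOF1, the gene of a nucleolar protein of ribosome production, and had no doxycycline. The gRNA2+dox cells were given doxycycline to induce knockout of TCOF1. The labels give the genotype as wild type in the first 3 conditions and as a TCOF1 knockout in gRNA2+dox. By the methods, all cells carried Cas9 with mCherry and a doxycycline-inducible guide with eGFP from lentiviruses and were sorted for both colours. No single-cell cloning is described for them, so cells without an edited TCOF1 may be among the gRNA2+dox cells. Several plates were pooled for each library. The dose of doxycycline is not in the labels.

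Cytokines of the interleukin-6 family, among them LIF and oncostatin M, bind a specific receptor chain (IL6R, LIFR or OSMR) together with the shared chain gp130, which IL6ST encodes. JAK kinases on the receptor tails then phosphorylate STAT3, which enters the nucleus and binds DNA as a dimer. SOCS3 is among the genes it switches on and blocks the receptor complex in return, which makes SOCS3 a common readout of the pathway. In triple-negative breast cancer the pathway is known for its part in survival and in stem-like growth. Messenger RNA does not show how much STAT3 was phosphorylated, and no protein was measured in these libraries. By immunoblot, the paper reports reduced STAT3 phosphorylation after TCOF1 knockout in spheroids of this line, a different culture from these mammospheres.

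With 1 library per condition there was no spread between cultures to test against and no p-value is given. Counts on genes were 19960644 without and 22467410 with doxycycline in CTL cells, and 26322847 without and 22168624 with it in gRNA2 cells. Levels are CPM, TMM-normalised counts scaled to library size. Each log2 ratio has an exact 95% Clopper-Pearson interval of the reads of the 2 libraries, which covers counting error only and compares libraries rather than conditions. The difference between 2 log2 ratios draws on 4 libraries, and its 95% interval comes from the summed counting variances of the 4 counts. A gene was called higher or lower where the log2 ratio was beyond 0.5 and the interval did not hold 0. TCOF1 itself had 1019 counts without and 754 with doxycycline in CTL cells, and 1318 without and 437 with it in gRNA2 cells. Its log2 ratio was -1.32 in gRNA2+dox against gRNA2 (-1.48 to -1.17) and -0.74 against CTL+dox (-0.92 to -0.57). It was also lower in CTL+dox than in CTL, by a log2 ratio of -0.59 (-0.73 to -0.45), although these cells carried no TCOF1 guide. The gRNA2+dox library had the lowest share of multimapping reads, 3.39% against 4.02% to 4.85% in the others, and the highest share outside annotated genes, 12.5% against 10.6% to 11.3%. The part of these shares in the values below was not tested. All 8 epithelial markers (EPCAM, CDH1, EGFR and 5 keratins) were above the level of 3 counts in every library, with a summed level of 12696 to 13998 CPM. ESR1 and PGR, the hormone receptors that the subtype lacks, had at most 13 and 7 counts. ERBB2, which the subtype has without amplification, had 270 to 387 counts, or 12.4 to 14.7 CPM.

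By RefSeq on GRCh38.p14, 3 of the receptor genes lie on chromosome 5, LIFR at chr5:38474668-38608403, OSMR at chr5:38846012-38945579 and IL6ST at chr5:55935095-55994963, and IL6R lies at chr1:154405343-154469450. STAT3 and SOCS3 share chromosome 17, at chr17:42313324-42388442 and chr17:78356778-78360925. BCL3 (chr19:44747705-44760044) and JUNB (chr19:12791486-12793315) share chromosome 19, LIF is at chr22:30240453-30246759 and PIM1 at chr6:37170152-37175428.

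RefSeq promoters of the same build were searched for the 2 spacings of the STAT dimer motif. TTCNNNGAA is the GAS form that most STAT dimers bind, and TTCNNGAA is the shorter form also reported for STAT3. Both read the same on either strand. Over the 250 bases before the start, TTCNNNGAA stood in 6.57% and TTCNNGAA in 6.62% of 35116 windows. The table held 12 windows for 9 of the 10 genes. Of those, 2 windows of LIFR held TTCNNNGAA, and 1 window each of STAT3, IL6R and SOCS3 held TTCNNGAA. No window held both. The third window of LIFR and the second of SOCS3, which belong to starts further downstream, held neither and are not printed. The windows of SOCS3 and LIFR with a match are printed because these genes had the highest ratios with the TCOF1 guide and doxycycline, and that of STAT3 because it is the factor itself and was the steadiest of the genes. All 4 run 5′ to 3′ on the minus strand and end 1 base before the start of transcription, with the motif in capitals. The SOCS3 window is chr17:78360926-78361175, with its match 215 to 208 bases upstream of the start. The LIFR windows are chr5:38595406-38595655, with the match 165 to 157 bases upstream, and chr5:38557468-38557717, with the match 182 to 174 bases upstream. The former is labelled most upstream among the LIFR windows searched only, as the gene itself reaches further upstream, to position 38608403. The STAT3 window is chr17:42388443-42388692, with the match 131 to 124 bases upstream. A match is a description of the letters and not a measured binding site.
SOCS3: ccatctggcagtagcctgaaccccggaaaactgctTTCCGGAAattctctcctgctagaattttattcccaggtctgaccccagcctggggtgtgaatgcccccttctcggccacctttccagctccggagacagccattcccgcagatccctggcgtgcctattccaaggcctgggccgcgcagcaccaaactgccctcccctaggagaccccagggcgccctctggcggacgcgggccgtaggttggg
LIFR, most upstream start: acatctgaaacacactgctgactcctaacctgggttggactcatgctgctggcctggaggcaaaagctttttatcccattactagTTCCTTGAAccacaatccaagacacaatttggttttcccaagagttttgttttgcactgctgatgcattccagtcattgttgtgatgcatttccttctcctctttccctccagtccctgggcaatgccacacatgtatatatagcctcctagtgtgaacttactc
LIFR, middle start: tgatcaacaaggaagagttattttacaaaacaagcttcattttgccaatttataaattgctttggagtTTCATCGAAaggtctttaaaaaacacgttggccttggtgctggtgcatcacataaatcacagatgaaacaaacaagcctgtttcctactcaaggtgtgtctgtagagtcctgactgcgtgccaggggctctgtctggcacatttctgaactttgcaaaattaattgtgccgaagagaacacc
STAT3: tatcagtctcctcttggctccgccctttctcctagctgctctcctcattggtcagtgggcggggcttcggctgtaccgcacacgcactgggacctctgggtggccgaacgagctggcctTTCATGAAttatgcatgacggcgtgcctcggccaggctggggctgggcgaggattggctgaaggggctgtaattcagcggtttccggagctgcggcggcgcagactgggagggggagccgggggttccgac

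**Figure D1:**
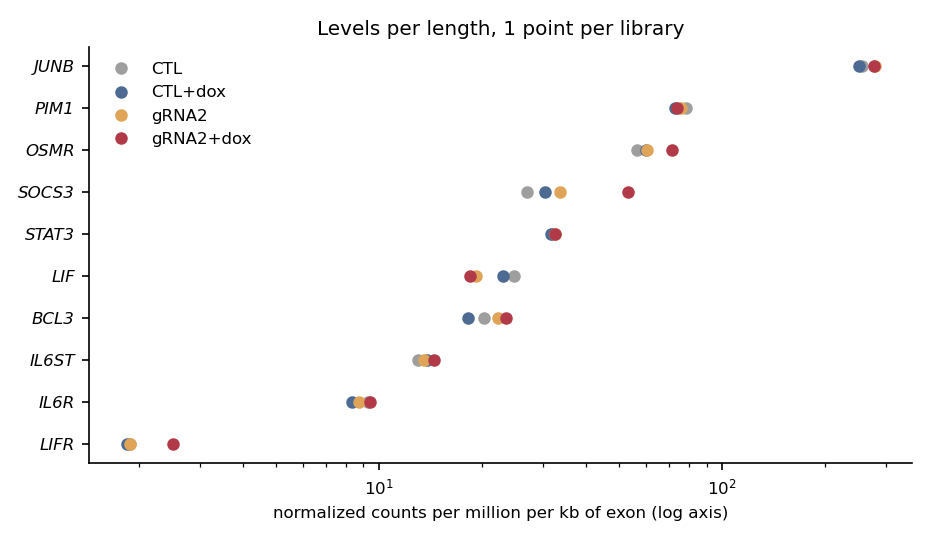
Level of each of the 10 genes in CPM per kilobase of exon (log axis), with 1 point per library. JUNB was highest, with a mean of 265, and LIFR lowest, with a mean of 2.03. The 4 points of STAT3 lie nearly on each other, and the gRNA2+dox point of SOCS3 stands to the right of the other 3.

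Every gene of the set was well covered, with at least 443 counts in each library. Per kilobase of exon, JUNB had the highest mean level over the 4 libraries, 265 CPM per kb, followed by PIM1 at 75.4 and OSMR at 62.0. SOCS3 had 36.1 CPM per kb, STAT3 32.1, LIF 21.3, BCL3 21.0, IL6ST 13.7 and IL6R 8.94, and LIFR was lowest at 2.03. JUNB was thus at the 99.1 percentile of the tested genes with a known exon length and LIFR at the 36.0 percentile. Among the 4 receptor chains OSMR, the oncostatin M receptor, dominated. Of the summed receptor level per kb it made up 70.1% in CTL, 71.4% in both CTL+dox and gRNA2, and 73.0% in gRNA2+dox. The shared chain IL6ST made up 14.8% to 16.4%, IL6R 9.63% to 11.5% and LIFR 2.20% to 2.57%. Whole genes were counted, so a soluble and a membrane form of a receptor are not told apart.

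LIF is the secreted ligand of the LIFR and gp130 pair. It had 1941 counts without and 1993 with doxycycline in CTL cells, and 1949 without and 1557 with it in gRNA2 cells, which are 95.9, 88.6, 74.0 and 71.3 CPM. Both libraries of gRNA2 cells were thus below both libraries of CTL cells. The log2 ratio of gRNA2 to CTL, neither with doxycycline, was -0.37 (-0.47 to -0.28), and that of gRNA2+dox to CTL+dox was -0.31 (-0.41 to -0.22). With doxycycline the level differed little in gRNA2 cells, with a log2 ratio of -0.05 (-0.15 to 0.04), and was slightly lower in CTL cells, at -0.11 (-0.21 to -0.02). The lower LIF level thus stood with the cell pool, with or without doxycycline, and with 1 library each the pool and the guide cannot be told apart. No ratio of LIF passed the call. LIF-AS1 and LIF-AS2 overlap LIF and are not among the genes listed. In bulk RNA, fewer cells that express a gene and less RNA per cell cannot be told apart, here and for all values that follow.

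IL6R binds interleukin-6 and then pairs with gp130. It had 1243 counts without and 1240 with doxycycline in CTL cells, and 1518 without and 1359 with it in gRNA2 cells, or 61.4, 55.1, 57.6 and 62.2 CPM. No neighbours in the order of the 4 levels were separated by their counting intervals. The ratio with doxycycline pointed up in gRNA2 cells, 0.11 (0.00 to 0.22), and down in CTL cells, -0.16 (-0.27 to -0.04). IL6R-AS1 and PSMD8P1 overlap IL6R and are not among the genes listed. IL6ST, which encodes gp130, had 2671, 3135, 3596 and 3203 counts in the same order of libraries, or 132, 139, 137 and 147 CPM. All its log2 ratios lay between 0.03 and 0.10, so the shared chain was close to level across the conditions.

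LIFR, the signalling partner of gp130 for LIF, had 443 counts without and 481 with doxycycline in CTL cells, and 577 without and 638 with it in gRNA2 cells. Normalised, these were 21.9, 21.4, 21.9 and 29.2 CPM, so 3 libraries shared a level and gRNA2+dox stood above them. Its log2 ratio in gRNA2+dox was 0.41 against gRNA2 (0.25 to 0.58) and 0.45 against CTL+dox (0.28 to 0.62), short of the 0.5 needed for a call although both intervals reach past it. Between CTL+dox and CTL the log2 ratio was -0.03 (-0.22 to 0.16), and between gRNA2 and CTL it was 0.00 (-0.18 to 0.18). The gene LIFR-AS1 overlaps LIFR and had at most 5 counts in any library.

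OSMR pairs with gp130 to bind oncostatin M. It had 8216 counts without and 9645 with doxycycline in CTL cells, and 11367 without and 11169 with it in gRNA2 cells, or 406, 429, 432 and 512 CPM. As for LIFR, the gRNA2+dox library was the highest, here with narrower intervals. The log2 ratio was 0.24 against gRNA2 (0.21 to 0.28) and 0.25 against CTL+dox (0.22 to 0.29), which is a level 18.5% and 19.3% higher. Smaller ratios stood between CTL+dox and CTL, 0.08 (0.04 to 0.12), and between gRNA2 and CTL, 0.09 (0.05 to 0.13). OSMR overlaps RICTOR, a gene with 1128 to 1588 counts, and reads were not told apart by strand. All 4 receptor chains had an interval above 0 in gRNA2+dox against each of gRNA2 and CTL+dox, comparisons that share the gRNA2+dox library, and none of the 8 ratios passed the call. Of all tested genes, 30.7% and 40.2% had an interval clear of 0 in these comparisons. The interval of IL6R against gRNA2 held 0 with total counts (-0.02 to 0.19), without a filter, with thinned libraries and at 99%. That of IL6ST against CTL+dox held 0 with total counts (-0.02 to 0.12), with at least 50 counts required and at 99%.

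STAT3, the transcription factor the receptors act through, had 4728 counts without and 5235 with doxycycline in CTL cells, and 6279 without and 5198 with it in gRNA2 cells. These came to 234, 233, 238 and 238 CPM. No library stood apart from another. The log2 ratio was -0.0023 in gRNA2+dox against gRNA2 (-0.06 to 0.05) and 0.03 against CTL+dox (-0.02 to 0.09), and the intervals held 0 in all 5 comparisons. The range of its log2 level over the 4 libraries was 0.04. Of the 798 genes whose mean log2 level lay within 0.5 of that of STAT3, 99.1% had a wider range.

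SOCS3, the feedback inhibitor that STAT3 induces, was the gene of the set that differed most. Its counts were 1488 without and 1871 with doxycycline in CTL cells, and 2425 without and 3179 with it in gRNA2 cells, and its levels 73.5, 83.2, 92.1 and 146 CPM. SOCS3-DT overlaps SOCS3 and is not among the genes listed, and reads were not told apart by strand. All 3 steps in the order of the levels were separated by their counting intervals, and the step up to gRNA2+dox was the largest. The log2 ratio was 0.66 against gRNA2 (0.58 to 0.74), a level 58.1% higher, and 0.81 against CTL+dox (0.73 to 0.89), a level 75.1% higher. The libraries without TCOF1 knockout differed too. SOCS3 was higher in CTL+dox than in CTL by a log2 ratio of 0.18 (0.08 to 0.28) and in gRNA2 than in CTL by 0.32 (0.23 to 0.42). The range of its log2 level was 0.99, and of 1807 genes within 0.5 of its mean log2 level, 0.111% had a wider range. The summed level of 8 white blood cell markers was 156 CPM without and 169 with doxycycline in CTL cells, and 181 without and 178 with it in gRNA2 cells, nearly all of it CD68, CSF1R and CD14. It was thus lowest in CTL, as SOCS3 was, but no higher in gRNA2+dox than in gRNA2, and its part in the SOCS3 levels was not tested. The pan-leukocyte gene PTPRC had at most 2 counts in a library and the T-cell gene CD3E at most 3. The summed level of 7 fibroblast and endothelial markers was 17.9 to 22.5 CPM in all 4 libraries, and that of CDH5 was 0.

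**Figure D2:**
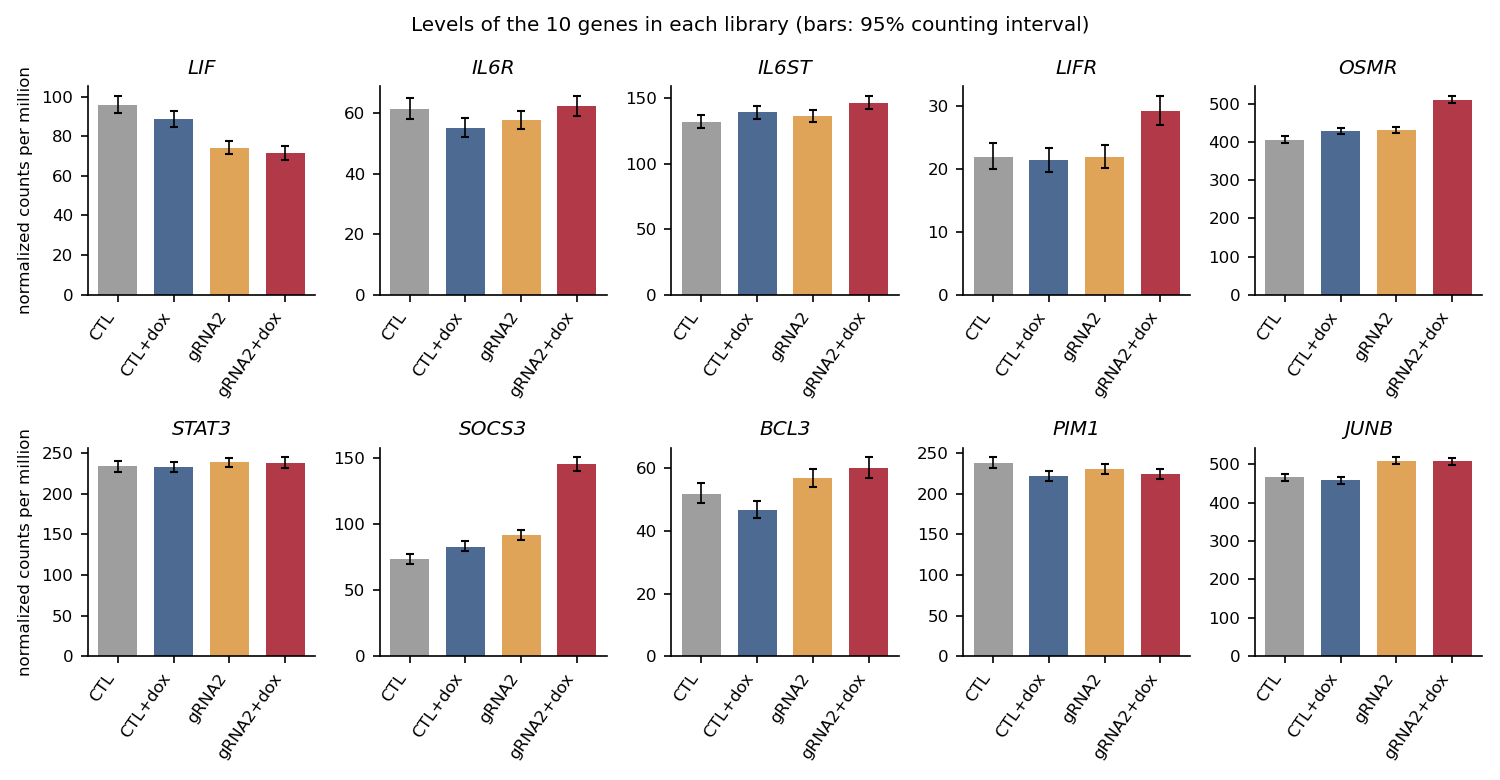
Level in CPM of each of the 10 genes in each of the 4 libraries, with bars for the 95% counting interval of each library. SOCS3 stood at 146 in gRNA2+dox against 73.5 to 92.1 in the other libraries, LIFR at 29.2 against 21.4 to 21.9, and LIF was lower in both gRNA2 libraries than in both CTL libraries.

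BCL3, a nuclear partner of NF-kappaB proteins, had 1050 counts without and 1052 with doxycycline in CTL cells, and 1498 without and 1312 with it in gRNA2 cells, or 51.9, 46.8, 56.9 and 60.1 CPM. Both gRNA2 libraries were above both CTL libraries. The log2 ratio was 0.36 in gRNA2+dox against CTL+dox (0.24 to 0.48) and 0.13 in gRNA2 against CTL (0.02 to 0.25), whereas that of gRNA2+dox to gRNA2 was 0.08, with an interval that held 0 (-0.03 to 0.19). BCL3 in CTL cells was lower with doxycycline, at -0.15 (-0.27 to -0.03).

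JUNB, a subunit of the AP-1 transcription factor, had 9431 counts without and 10315 with doxycycline in CTL cells, and 13401 without and 11088 with it in gRNA2 cells. At 466, 459, 509 and 508 CPM it too was higher in both gRNA2 libraries than in both CTL libraries. Its log2 ratio was 0.15 in gRNA2+dox against CTL+dox (0.11 to 0.19) and 0.13 in gRNA2 against CTL (0.09 to 0.17), and -0.0031 in gRNA2+dox against gRNA2 (-0.04 to 0.03). JUNB overlaps HOOK2, which had 659 to 797 counts. PIM1, a serine/threonine kinase that promotes survival, had 4811 counts without and 4981 with doxycycline in CTL cells, and 6069 without and 4886 with it in gRNA2 cells, or 238, 221, 230.5 and 224 CPM. No neighbours in the order of its levels were separated, and CTL+dox was lower than CTL by a log2 ratio of -0.10 (-0.16 to -0.05). Against gRNA2, the intervals of all 3 targets, BCL3, PIM1 and JUNB, held 0. That of PIM1 lay below 0 with total counts (-0.12 to -0.01) and without a filter (-0.11 to -0.0041). Against CTL+dox, BCL3 and JUNB had intervals above 0 and PIM1 did not.

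**Figure D3:**
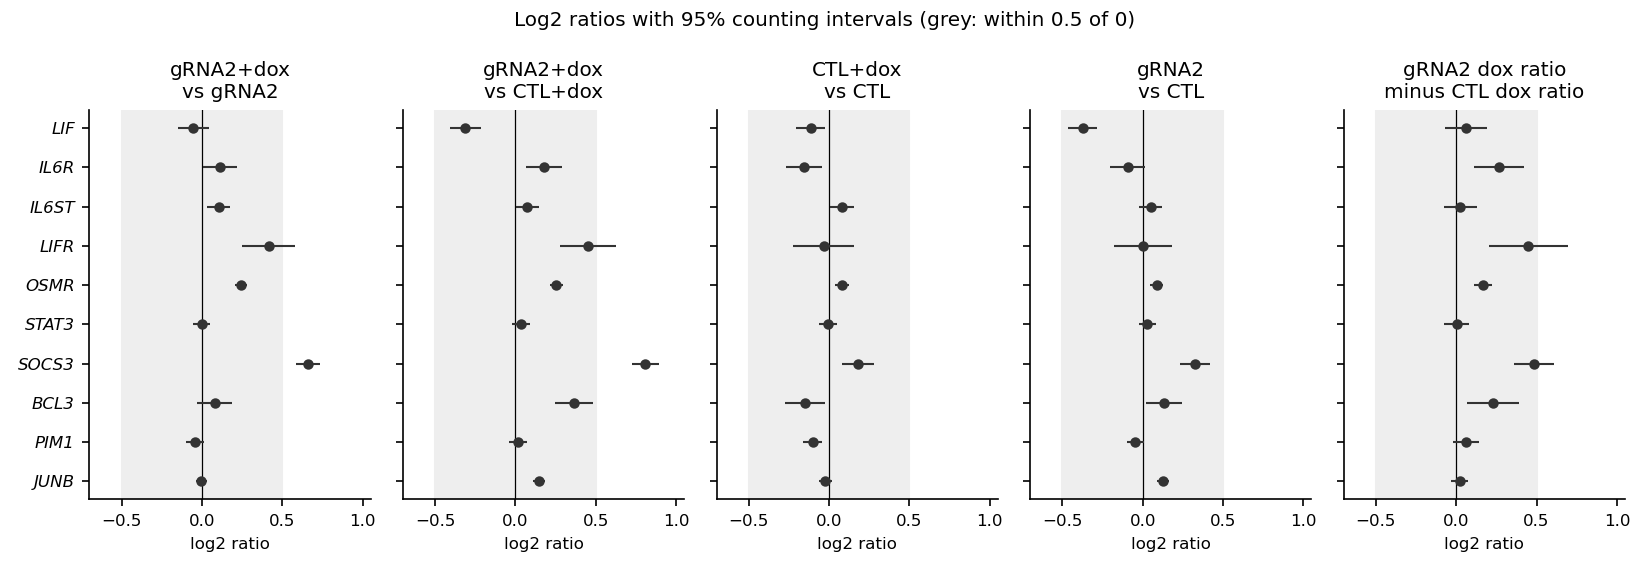
Log2 ratio of each of the 10 genes in the 4 comparisons of libraries and in the difference between the doxycycline ratios of gRNA2 and CTL cells, with bars for 95% counting intervals and grey for ratios within 0.5 of 0. SOCS3 lies beyond the grey band in gRNA2+dox against gRNA2 (0.66) and against CTL+dox (0.81), and no other gene does in any panel.

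SOCS3 was the only gene of the set called in any comparison. In gRNA2+dox against gRNA2, 1 of 10 genes was called higher and 0 lower, where 2.22% of all tested genes were called higher and 2.74% lower. The intervals of SOCS3, LIFR, OSMR, IL6R and IL6ST lay above 0 there and none below. Intervals clear of 0 were common, however, at 30.7% of all tested genes. The median log2 ratio of the 10 genes was 0.09, beside -0.0021 for all tested genes.

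Against CTL+dox, again 1 of 10 was called higher and 0 lower, beside 3.35% and 5.04% of all tested genes. Intervals lay above 0 for 7 genes and below 0 for LIF, where 40.2% of all tested genes had an interval clear of 0. The median log2 ratio was 0.16, beside -0.00052 for all tested genes.

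The comparisons that involve no knockout gave no call. In CTL+dox against CTL, 0 of 10 genes were called, with 1.66% of all tested genes called higher and 2.14% lower. The median log2 ratio of the 10 genes was -0.03, beside 0.00085 for all tested genes. In gRNA2 against CTL, 0 of 10 were called, with 1.64% of all tested genes higher and 3.21% lower, and the median was 0.04, beside -0.0032. The 4 comparisons share libraries in pairs, so their values are not independent of each other.

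The doxycycline ratio in gRNA2 cells less that in CTL cells asks whether doxycycline went with another difference where the TCOF1 guide was present. SOCS3 had a difference of 0.48 (0.36 to 0.61), just short of 0.5, and LIFR of 0.45 (0.20 to 0.70). IL6R had 0.27 (0.11 to 0.42), BCL3 0.23 (0.07 to 0.39) and OSMR 0.17 (0.11 to 0.22). The other 5 had intervals that held 0, from 0.0036 for STAT3 to 0.06 for LIF. None of the 10 was called, where 3.29% of all tested genes were called higher and 3.39% lower. The difference was above 0 in 10 of 10 genes, in 9 with total counts or thinned libraries and in 7 without a low-count filter. Of all tested genes 7726 were above 0 and 7478 below.

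Wide ranges over the 4 libraries were found beyond SOCS3 as well, but were less exceptional for the level of the gene. The range of the log2 level was 0.45 for LIFR, 0.43 for LIF, 0.36 for BCL3 and 0.33 for OSMR. Of the genes within 0.5 of the mean log2 level, 11.8% had a wider range than LIFR, 6.39% than LIF, 15.5% than BCL3 and 12.7% than OSMR. IL6R had a range of 0.18, IL6ST and JUNB 0.15 and PIM1 0.10, with 64.1% to 85.3% of genes of like level ranging more widely.

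**Figure D4:**
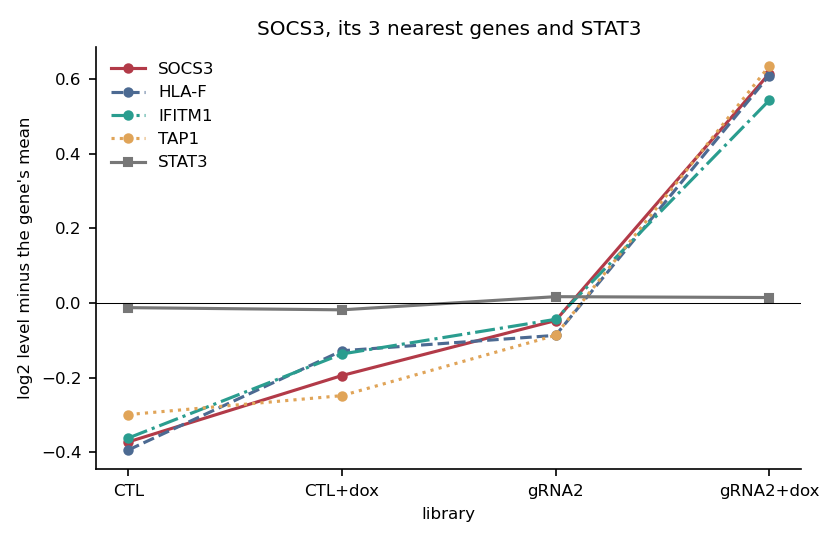
Log2 level of SOCS3, its 3 nearest genes and STAT3 in each library, less the mean of that gene over the 4 libraries. HLA-F, IFITM1 and TAP1 follow SOCS3 with root mean square differences of 0.0401 to 0.0505, while STAT3 stays within a range of 0.04.

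The genes whose pattern over the 4 libraries was nearest to that of SOCS3 were sought among 10531 other genes with at least 100 counts in every library. Likeness was the root mean square difference of the centred log2 levels, over 4 libraries only. The nearest was HLA-F, a non-classical class I histocompatibility gene, at 0.0401, with 1014, 1355, 1632 and 2191 counts in CTL, CTL+dox, gRNA2 and gRNA2+dox. IFITM1, an interferon-induced membrane protein, followed at 0.0464 with 431, 560, 699 and 870 counts. TAP1, a subunit of the peptide transporter for class I molecules, came next, at 0.0505, with 2250, 2591, 3392 and 4634 counts. HLA-F and IFITM1 have close relatives in the genome, so reads that map to several places may be missing from their counts.

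The wider pathway was followed through 7 lists of 71 genes in all, the 10 genes included, of which 63 were tested and 8 were under the filter. In gRNA2+dox against gRNA2, 6 of the 63 were called higher and 3 lower, where 2.22% and 2.74% of all tested genes were. Against CTL+dox 5 were called higher and 3 lower, beside 3.35% and 5.04% of all tested genes. Without a knockout, CTL+dox against CTL gave 0 higher and 2 lower, beside 1.66% and 2.14% of all tested genes. In gRNA2 against CTL, 2 were called higher and 1 lower, beside 1.64% and 3.21%. The difference of the doxycycline ratios gave 5 higher and 2 lower, beside 3.29% and 3.39%. The median log2 ratio of the 63 was 0.0026 in gRNA2+dox against gRNA2 and 0.11 in gRNA2+dox against CTL+dox.

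Among the ligands, 10 genes with 7 tested, none was called higher in any comparison. OSM, which encodes the ligand of the abundant OSMR, had 5, 5, 3 and 2 counts in CTL, CTL+dox, gRNA2 and gRNA2+dox and was not tested. Interleukin-6 had 8 to 15 counts over the 4 libraries, while the related CLCF1 had 1360 to 2091. IL27 was called lower in gRNA2+dox against gRNA2 and in CTL+dox against CTL, on 17, 7, 13 and 2 counts. The ratios were -2.18 (-5.62 to -0.29) and -1.37 (-2.95 to -0.09), intervals that show how little these few reads fix.

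Among the 8 receptors, none was called higher. IL11RA, the interleukin-11 receptor, had 66, 44, 69 and 33 counts and was called lower with doxycycline in both pools, at -0.79 in gRNA2 cells (-1.44 to -0.18) and -0.73 in CTL cells (-1.32 to -0.17). IL31RA was called lower in gRNA2+dox against CTL+dox, on 2 and 10 counts, at -2.04 (-5.51 to -0.05).

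Of the 10 JAK kinases and STATs, STAT4 was called higher in gRNA2+dox against both gRNA2 and CTL+dox. It rests on 60, 64, 81 and 104 counts in CTL, CTL+dox, gRNA2 and gRNA2+dox, with log2 ratios of 0.63 (0.20 to 1.07) and 0.74 (0.28 to 1.22). The difference between the doxycycline ratios was called for STAT4, at 0.69 (0.03 to 1.34), beside 0.0036 for STAT3. The kinases JAK1, JAK2 and TYK2 had log2 ratios of 0.06, 0.02 and 0.03 against gRNA2. Against CTL+dox they were at 0.11 (0.05 to 0.17), 0.15 (0.01 to 0.28) and 0.26 (0.21 to 0.30). All 10 JAK kinases and STATs were above 0 against CTL+dox, with a median of 0.19, and 7 against gRNA2, with a median of 0.04. Of all 15204 tested genes, 7587 were above 0 against CTL+dox and 7537 against gRNA2.

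Of 10 tested feedback regulators, SOCS3 and SOCS1 were called higher against gRNA2. SOCS1, which inhibits JAK kinases, had 631, 822, 616 and 912 counts in CTL, CTL+dox, gRNA2 and gRNA2+dox. Its log2 ratio was 0.84 against gRNA2 (0.69 to 0.99) but 0.19 against CTL+dox (0.06 to 0.33), as gRNA2 lay below CTL by -0.41 (-0.58 to -0.25).

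Among 18 target genes, which include STAT3, SOCS3, BCL3, PIM1 and JUNB, IRF1 had the highest ratio against CTL+dox and SOCS3 the highest against gRNA2. IRF1, a transcription factor of the interferon response, had 1026, 1030, 1597 and 2059 counts and log2 ratios of 0.64 against gRNA2 (0.54 to 0.73) and 1.04 against CTL+dox (0.93 to 1.15). ICAM1, an adhesion molecule, was called higher against CTL+dox only, at 0.55 (0.52 to 0.58), and was at 0.22 against gRNA2 (0.20 to 0.25). CEBPD, a transcription factor of the acute phase response, was called higher against gRNA2, at 0.55 (0.30 to 0.81), and lower in gRNA2 against CTL, at -0.58 (-0.83 to -0.32), so that its 13.4 CPM in gRNA2+dox was close to its 13.6 CPM in CTL. BIRC5, which encodes survivin and is expressed in dividing cells, was called lower against CTL+dox, at -0.94 (-1.17 to -0.71). The list as a whole had a median log2 ratio of 0.00084 against gRNA2, with 9 of 18 genes above 0 and 9 below, and of 0.11 against CTL+dox, with 14 above and 4 below.

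Of 6 tested acute phase genes none was called higher in gRNA2+dox, and LBP was called lower against gRNA2, at -1.05 (-1.69 to -0.46) on 83 and 33 counts. A2M, a protease inhibitor, was called higher in gRNA2 against CTL, at 0.53 (0.41 to 0.66), with 797 and 1503 counts, and LBP at 0.56 (0.02 to 1.14). The 6 relatives of the targets, PIM2, PIM3, JUN, JUND, NFKB1 and NFKB2, gave no call in any comparison, with ratios from -0.15 to 0.12 in gRNA2+dox against gRNA2.

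**Figure D5:**
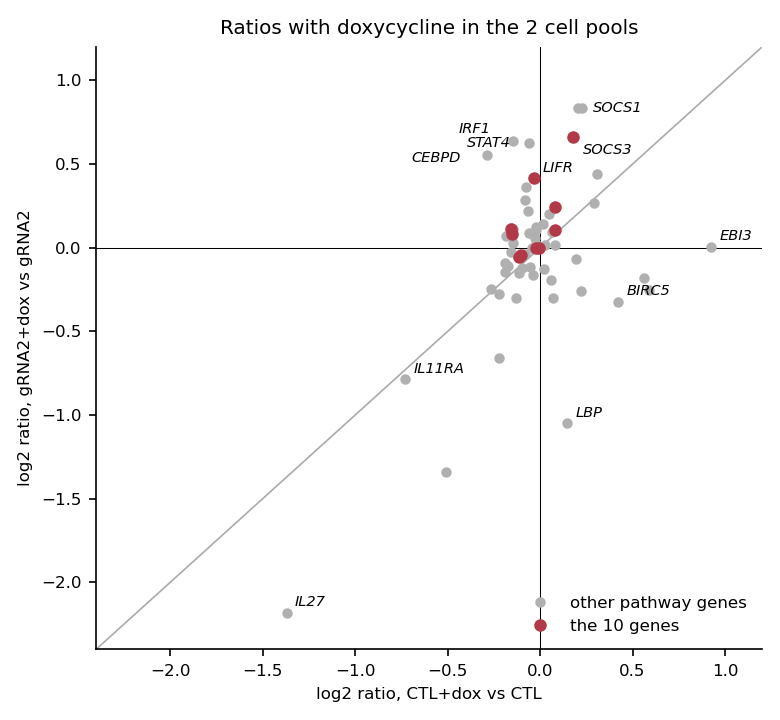
Log2 ratio with doxycycline in CTL cells (horizontal axis) and in gRNA2 cells (vertical axis) for the tested pathway genes, with the 10 genes in red and the line of equal ratios drawn. SOCS3 lies above the line at 0.18 and 0.66 and IRF1 at -0.15 and 0.64, while most of the 10 genes lie near the origin.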

How the data were processed

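RNA-seq of MDA-MB-468 mammospheres was analysed from 4 libraries, 1 for each condition as labelled. The authors deposited unnormalised read counts per gene. By the methods, adaptors were trimmed with fastp and reads aligned and counted with STAR, and the submitters' processing notes name hg38. The gene annotation is not given in the sources used here. The unstranded counts were used, since 49.0% to 49.1% of stranded reads lay on the first strand. Lines that name no gene held 19.0% to 20.3% of reads and were left out.

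Counts were normalised with edgeR 4.0.16 (TMM factors 0.985 to 1.01) in R 4.3.3. Ratios (prior count 0.5) and intervals came from scipy 1.17.1, numpy 2.4.6 and pandas 2.3.3 under Python 3.11.15, for the 15204 genes with at least 10 counts in 1 library, and tested on simulated data. A level of 3 counts is 0.114 to 0.148 CPM. Exon lengths come from GENCODE lifted to GRCh37, matched by symbol for 91.5% of tested genes, and promoters from RefSeq on GRCh38.p14.

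The 10 genes, the pathway lists, the markers and the likeness rule were chosen with earlier results of these data known. Named genes were the 10, TCOF1, list genes called in any comparison and the 3 nearest genes to the member with the widest range. JAK1, JAK2, TYK2, OSM, IL6 and CLCF1 were named after their values were seen. As alternatives, scaling by DESeq2 1.42.0 or by total counts was tried, with other filters, prior counts, folds and intervals, an assumed variation between cultures and thinned libraries. Some genes counted in the lists are not reported here by name.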

Additional observations from a re-analysis of the deposited data

Results flagged for a closer look

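For IL6R, 1 of the 10 genes, the log2 ratio with doxycycline had opposite signs in gRNA2 and CTL cells with both counting intervals clear of 0. Of all 15204 tested genes, 510 did so, or 3.35%. So did 4 of the 13 other list genes called in any comparison, which were looked at because they were called, so their number is not set against that share. With 1 library per condition the difference between the cell pools was not tested against the spread between cultures.

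IL6R, the interleukin-6 receptor, was at 0.11 in gRNA2 cells and -0.16 in CTL cells, a difference of 0.27, and the former interval held 0 with total counts (-0.02 to 0.19), without a filter, with thinned libraries and at 99%. IRF1 was at 0.64 and -0.15, a difference of 0.78. CEBPD was at 0.55 and -0.29, a difference of 0.84. ICAM1 was at 0.22 and -0.07, a difference of 0.29. BIRC5 went the other way, at -0.32 in gRNA2 cells and 0.42 in CTL cells, a difference of -0.74.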

How the results depend on the processing

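In the 6 of 9 alternative settings that can change a ratio, the 300 log2 ratios of the 10 genes moved by at most 0.05 and stayed within their 95% counting intervals. The sign turned in 9 of them, where the reported ratio was within 0.03 of 0. SOCS3 was called in gRNA2+dox against gRNA2 (0.64 to 0.66) and against CTL+dox (0.78 to 0.81) under all settings but a fold of 1 on the log2 scale, which left 0 of the 10 genes called in either comparison. That fold left 2 pathway genes called against gRNA2, 2 against CTL+dox, 1 in CTL+dox against CTL, 0 in gRNA2 against CTL and 1 in the difference of the doxycycline ratios. In CTL+dox against CTL, 1 pathway gene was called with at least 50 counts required, 1 with thinned libraries and 0 with a 99% interval. Without a filter 26475 genes were tested.

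An assumed coefficient of variation of 0.1 between cultures left 3 of 30 intervals of the 10 genes clear of 0, SOCS3 against gRNA2 (0.25 to 1.07) and CTL+dox (0.40 to 1.22) and LIFR against CTL+dox (0.02 to 0.89). The true variation between cultures is unknown here. No paired analysis was possible because there was 1 library per condition, and no library could be left out.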
